A study of Mus musculus with 15 samples.

Results

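The miR-135 family was followed across the 5 groups of a mouse stem cell differentiation series. Its members here are mmu-miR-135a-5p, mmu-miR-135b-5p and mmu-miR-135a-2-3p (written below without the species prefix), 3 of the 1122 mouse miRNAs on the array, chosen by name in the annotation column of the scanner tables. Each of the 3 passed the filter on dim signals, which left 307 miRNAs for testing. miR-135a-2-3p passed it through its day 14 arrays, so that it differs between groups is partly fixed by the filter.

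miRNAs are short RNAs cut from hairpin precursors, and bases 2 to 8 of a mature strand (the seed) pair with target mRNAs. In mouse, miR-135a-5p is made from a pair of genes, Mir135a-1 and Mir135a-2, and miR-135b-5p from Mir135b. In the developing midbrain, miR-135a has been placed in a circuit with Lmx1b, a transcription factor of dopaminergic progenitors, and with the Wnt pathway, which sets the size of that progenitor pool; Apc, a Wnt pathway inhibitor, has been reported as a target of the family.

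The mature strands are shown because the arms with an entry differ in their seeds, printed in capitals (mouse, RefSeq, GRCm38.p6). Of the 3 members, 2 matched an entry and miR-135b-5p did not. The first 2 strands shown are members and the last 2 are the 3p arms of the other hairpins.
miR-135a-5p: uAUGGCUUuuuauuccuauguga
miR-135a-2-3p: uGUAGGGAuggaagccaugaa
miR-135a-1-3p: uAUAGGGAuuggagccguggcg
miR-135b-3p: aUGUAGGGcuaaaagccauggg
The same 23 bases of miR-135a-5p are annotated at chr9:106154140-106154162 on the plus strand, in Mir135a-1, and at chr10:92072141-92072163 on the minus strand, in Mir135a-2, so its signal cannot be assigned to either gene. The 3p arms are specific to their hairpins: miR-135a-2-3p lies at chr10:92072104-92072124 (minus strand), miR-135a-1-3p at chr9:106154179-106154200 (plus strand) and miR-135b-3p at chr1:132198142-132198163 (plus strand). Of the 1679 mature names in the table, 1 carried the seed of miR-135a-5p, but miR-135b-5p has no entry there and could not be counted. The letters AUGGCUU also occur in the hairpin of Mir135b, from which miR-135b-5p is made. The count therefore does not show that this seed is unique to miR-135a-5p within the family.

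The 3 hairpins are shown with the letters of that seed in capitals, to set the 2 miR-135a genes beside Mir135b.
Mir135a-1: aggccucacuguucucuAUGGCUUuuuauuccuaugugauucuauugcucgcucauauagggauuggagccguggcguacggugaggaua
Mir135a-2: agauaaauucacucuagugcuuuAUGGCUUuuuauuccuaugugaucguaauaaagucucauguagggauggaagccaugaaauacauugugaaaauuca
Mir135b: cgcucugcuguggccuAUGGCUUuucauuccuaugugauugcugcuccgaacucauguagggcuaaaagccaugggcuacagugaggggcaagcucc
Mir135a-1 (90 bases) is at chr9:106154124-106154213 on the plus strand, Mir135a-2 (100 bases) at chr10:92072086-92072185 on the minus strand, and Mir135b (97 bases) at chr1:132198088-132198184 on the plus strand. The letters AUGGCUU, searched on the hairpin strand, occurred in each of the 3 and in 8 of the 1005 hairpins of the table (0.796%). By gene neighbourhood in RefSeq, Mir135a-1 lies inside Glyctk, which encodes a glycerate kinase, and Mir135b inside Lemd1. The gene nearest to Mir135a-2 is Rmst, a long non-coding RNA known as a marker of the midbrain floor plate.

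The cells were epiblast stem cells (EpiSC, pluripotent cells of the post-implantation embryo) from Pitx3-GFP mice, which report a gene of midbrain dopaminergic neurons, and every group shares that origin. The series compared day 5 cells sampled before morphogens, treated cells given SHH and FGF8 (which pattern the ventral midbrain) from day 5 and sampled at day 9 and day 14, and control cells grown without them to the same days. Each of the 5 groups had 3 single-colour arrays of RNA extracted with a miRNA isolation kit. The labels name no sort of GFP-positive cells and do not say whether replicates were separate cultures, so p-values measure only the spread between these samples.

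Signal is reported as scaled log2 signal, the background-subtracted intensity relative to the array's 75th percentile of detected probes. That percentile ran from 149 to 336 intensity units, 239 to 333 miRNAs were above background per array, and replicates correlated at 0.980 to 0.998 (Pearson, over 307 tested miRNAs that are no independent replicates). The arrays lay on 2 slides. Day 5, treated day 9 and treated day 14 replicates 1 and 2 were hybridised on slide 1. Treated day 14 replicate 3 and both control groups were on slide 2.

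The labelled cell types were checked against marker miRNAs. The primed pluripotency list (miR-302a to d and miR-367-3p) was above background for 5 of 5 members on the day 5 arrays, where its summed linear scaled signal was 2.02 to 3.00, against 0.35 to 0.55 in treated and 0.34 to 0.48 in control cells at day 9. The neural list (both arms of miR-9, miR-124-3p and miR-128-3p) was above background throughout and summed to 3.93 to 4.22 at day 5, 7.69 to 8.01 in treated and 13.6 to 15.2 in control cells at day 9, and 14.9 to 17.2 in treated and 23.8 to 28.0 in control cells at day 14. miR-133b-3p, reported from dopaminergic neurons of the midbrain, was not detected (0 of 15 arrays above background), and no other listed miRNA marks dopaminergic neurons alone.

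miR-135a-5p, the arm shared by both miR-135a genes, was above background on 15 of 15 arrays. Its scaled log2 signal at day 5 was -1.33, -1.19 and -1.69. In treated cells it was -0.24, -0.16 and -0.30 at day 9 and 0.53, 0.70 and 0.12 at day 14. In control cells it was -1.50, -1.31 and -1.63 at day 9 and -0.36, -0.13 and -0.17 at day 14. The treated arrays were high at day 9, when the control arrays were still in the range of day 5, and highest at day 14, when the control arrays had come to the range of treated day 9. By group mean the order was treated day 14 (0.45 ± 0.30, SD, n = 3), control day 14 (-0.22 ± 0.12), treated day 9 (-0.23 ± 0.07), day 5 (-1.41 ± 0.26) and control day 9 (-1.48 ± 0.16). Control day 14 and treated day 9 overlapped, as did day 5 and control day 9, while the other neighbours in this order did not overlap. From the lowest to the highest group mean the signal spanned 1.93 on the log2 scale, or 3.81-fold. In these bulk samples, fewer cells of a type and less miRNA per cell cannot be told apart.

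miR-135b-5p, from Mir135b, was also above background on 15 of 15 arrays and moved over a smaller range, 0.82 on the log2 scale (1.76-fold) between the lowest and highest group mean. The scaled log2 signals at day 5 were -0.28, -0.42 and -0.63. Treated cells had -0.0067, 0.13 and 0.12 at day 9 and -0.24, -0.0015 and -0.23 at day 14. Control cells had 0.031, 0.21 and 0.0081 at day 9 and 0.17, 0.48 and 0.46 at day 14. Day 5 was the lowest group and overlapped no other. The means fell in the order control day 14 (0.37 ± 0.17, SD, n = 3), control day 9 (0.08 ± 0.11), treated day 9 (0.08 ± 0.08), treated day 14 (-0.16 ± 0.13) and day 5 (-0.44 ± 0.18), and among the first 4 each overlapped its neighbour.

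miR-135a-2-3p, the other arm of the Mir135a-2 hairpin, was dim, and its probe was above background on 9 of 15 arrays. The treated day 14 arrays were the brightest, at scaled log2 signals of -2.42, -2.35 and -2.36 (58.9, 59.6 and 52.7 intensity units). The control day 14 arrays were at -3.79, -3.50 and -3.36, each above background, and the treated day 9 arrays at -3.79, -3.55 and -4.03, of which 2 were above background. At day 5 the signals were at the floor of -4.30 (1 of 3 arrays above background), and at control day 9 they were at -4.26 and, on 2 arrays, at the floor (0 of 3 above background). Treated day 14 (-2.38 ± 0.03, SD, n = 3) did not overlap control day 14 (-3.55 ± 0.22), which overlapped treated day 9 (-3.79 ± 0.24), and treated day 9 lay above the remaining groups.

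The other arms of the hairpins were read as well. miR-135a-1-3p, from Mir135a-1, was above background on 15 arrays and was highest at day 5, with scaled log2 signals of -1.67, -1.63 and -1.18. It was at -2.47, -2.58 and -2.57 in treated and -2.62, -2.74 and -2.73 in control cells at day 9, and at -1.72, -1.90 and -2.08 in treated and -2.93, -2.86 and -3.03 in control cells at day 14. Its groups did not overlap, and its order differed from that of the miR-135a-2 arm: day 5 was its highest group, where miR-135a-2-3p was at the floor. miR-135b-3p was above background on 0 of 15 arrays.

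**Figure D1:**
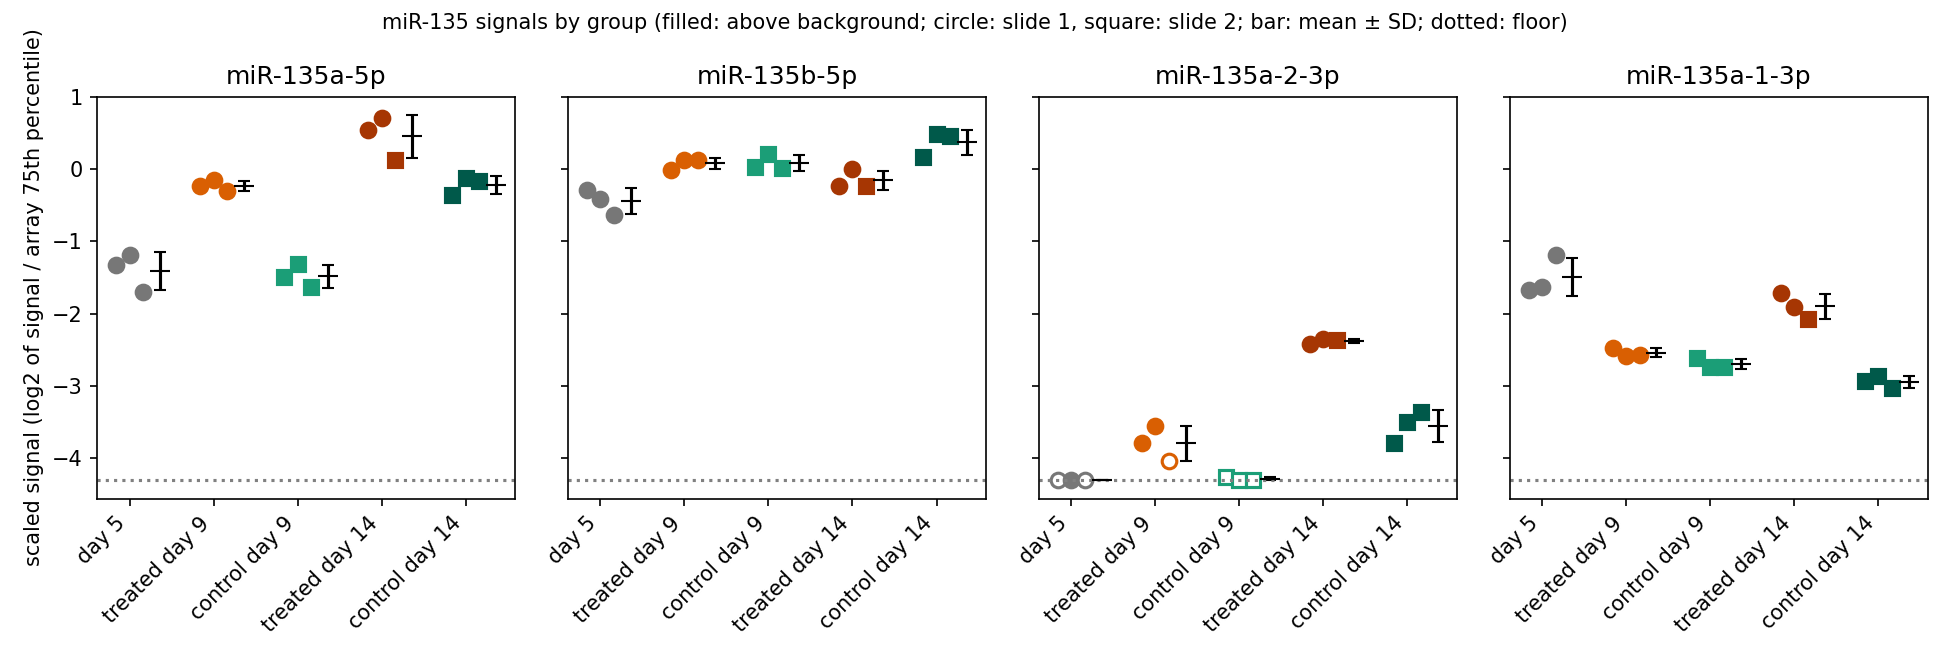
Scaled signal (log2 of signal over the array's 75th percentile, vertical axis) of 4 strands of the family on each of 15 arrays, by group; filled symbols are above background, circles are slide 1 and squares slide 2, bars are mean ± SD of 3 arrays and the dotted line is the floor. miR-135a-5p is high in treated day 9, control day 14 and treated day 14 cells, the group means of miR-135b-5p span 0.82, and miR-135a-2-3p is highest at treated day 14.

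The comparison of treated with control cells at day 9 asked which miRNAs differed after 4 days of SHH and FGF8. miR-135a-5p was 2.38-fold higher in treated cells (log2 difference 1.25, SE 0.15, adjusted p = 9.65e-06, limma with Benjamini-Hochberg adjustment over 307 miRNAs), with 3 of 3 treated arrays above the control arrays. miR-135b-5p did not pass the test (-0.0015, 95% confidence interval -0.24 to 0.24, adjusted p = 1.00), and its groups overlapped. miR-135a-2-3p was at least 1.32-fold higher in treated cells (measured log2 difference 0.49, SE 0.12, adjusted p = 0.00253), with 2 of 3 treated and 0 of 3 control arrays above background. Thus 2 of the 3 members were called, both higher. Of all tested miRNAs 56% were called (40.7% higher, 15.3% lower) and the groups of 71% did not overlap, with a median difference of 0.25. Against that background the number of members called is not a result about the family. By size, the difference of miR-135a-5p ranked 24 of 307.

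The day 9 result depends on scaling and slide in different ways for each member. The treated and control day 9 arrays lay on different slides, so there is no within-slide value. With the slide as a block, which rests on the treated day 14 arrays being split over both slides, miR-135a-5p was 0.75 higher (SE 0.23, adjusted p = 0.0282), and miR-135a-2-3p no longer passed (0.51, adjusted p = 0.116). Between other scalings the split of all calls went from 125 higher and 47 lower to 41 and 121 (percentile of all probes), 57 and 94 (quantile normalization) and 72 and 87 (median), and the median of all differences moved to -0.25, -0.07 and 0 in turn. Under the percentile of all probes miR-135b-5p was called lower (-0.58, adjusted p = 0.00103), while miR-135a-5p kept its call and direction under each of these scalings (0.67 to 0.96). The call of miR-135a-2-3p was lost under each of the 3 scalings (0.056, 0.050 and 0.30) and with normexp background correction (0.14).

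At day 14, miR-135a-5p and miR-135a-2-3p were higher and miR-135b-5p lower in treated than in control cells. miR-135a-2-3p, with 3 of 3 arrays above background in each group, was 2.25-fold higher (log2 difference 1.17, SE 0.12, adjusted p = 1.97e-06, limma) and ranked 17 of 307 by size. miR-135a-5p was 1.59-fold higher (0.67, SE 0.15, adjusted p = 0.00212). miR-135b-5p was at 0.694 of the control level (-0.53, SE 0.11, adjusted p = 0.00123). In each of the 3 the treated and control arrays did not overlap. Of all tested miRNAs 53.1% were called (39.1% higher, 14% lower) and the groups of 56% did not overlap, with a median difference of 0.22.

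Treated day 14 replicate 3 was hybridised on the slide of the controls and gives a within-slide value. There the difference was 0.34 for miR-135a-5p, -0.60 for miR-135b-5p and 1.19 for miR-135a-2-3p (1 treated against 3 control arrays). The blocked fit had the same values, and in it miR-135a-5p no longer passed (adjusted p = 0.169), while miR-135b-5p (0.011) and miR-135a-2-3p (2e-04) did. For miR-135a-5p the slide 2 array of treated day 14 was at 0.12 against a mean of 0.62 on slide 1. With the percentile of all probes, miR-135a-5p was at 0.29 (adjusted p = 0.149), and with normexp background correction miR-135a-2-3p was at 0.33 (adjusted p = 0.0522). The split of all calls, 120 higher and 43 lower, was 37 and 77, 70 and 70, and 76 and 65 under the percentile of all probes, quantile normalization and median scaling.

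Whether the treated-control difference depended on the day was tested as an interaction. For miR-135b-5p the difference was lower at day 14 than at day 9 by 0.53 on the log2 scale (SE 0.16, adjusted p = 0.019, limma). For miR-135a-2-3p it was 0.68 higher at day 14 (SE 0.16, adjusted p = 0.00616); its control day 9 arrays were not above background, so this fitted value depends on the floor and is not exact. For miR-135a-5p the value was -0.58 (95% confidence interval -1.05 to -0.12, adjusted p = 0.0518) and did not pass. Here 2 of the 3 members were called, where 32.9% of all miRNAs were called (52 higher and 49 lower; 55 and 25 with the percentile of all probes, 68 and 39 with quantile normalization). With normexp background correction miR-135b-5p (-0.43, adjusted p = 0.0568) and miR-135a-2-3p (0.20, adjusted p = 0.645) did not pass, and miR-135b-5p also did not with the percentile of all probes (-0.32) or median scaling (-0.45). The call of miR-135b-5p was lost without treated day 9 replicate 3 (adjusted p = 0.0507), control day 14 replicate 2 (0.058) or control day 14 replicate 3 (0.0512). That of miR-135a-5p was gained without treated day 14 replicate 2 (0.0238), control day 9 replicate 2 (0.0436) or control day 14 replicate 1 (0.0414), and with the replicate number as a block (0.0155).

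The treatment comparisons were also read for the 3p arm of Mir135a-1. miR-135a-1-3p differed by 0.16 between treated and control cells at day 9 (adjusted p = 0.288, limma). It was called lower in treated cells with the percentile of all probes (-0.42, adjusted p = 0.0231) and quantile normalization (-0.33, adjusted p = 0.0142) and called higher with the compared groups alone (0.16, adjusted p = 0.0432). Neither median scaling (-0.13) nor the slide as a block (-0.11) gave a call. At day 14 it was 2.06-fold higher in treated cells (1.04, SE 0.12, adjusted p = 1.03e-05, limma), a difference of 0.40 to 0.66 with normexp, the raised floor, quantile normalization or the percentile of all probes, called in each. The difference between the days was 0.88 (SE 0.17, adjusted p = 0.00158), and its call was lost with normexp (0.34, adjusted p = 0.263) and with the floor raised 4 times (0.40, adjusted p = 0.119).

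**Figure D2:**
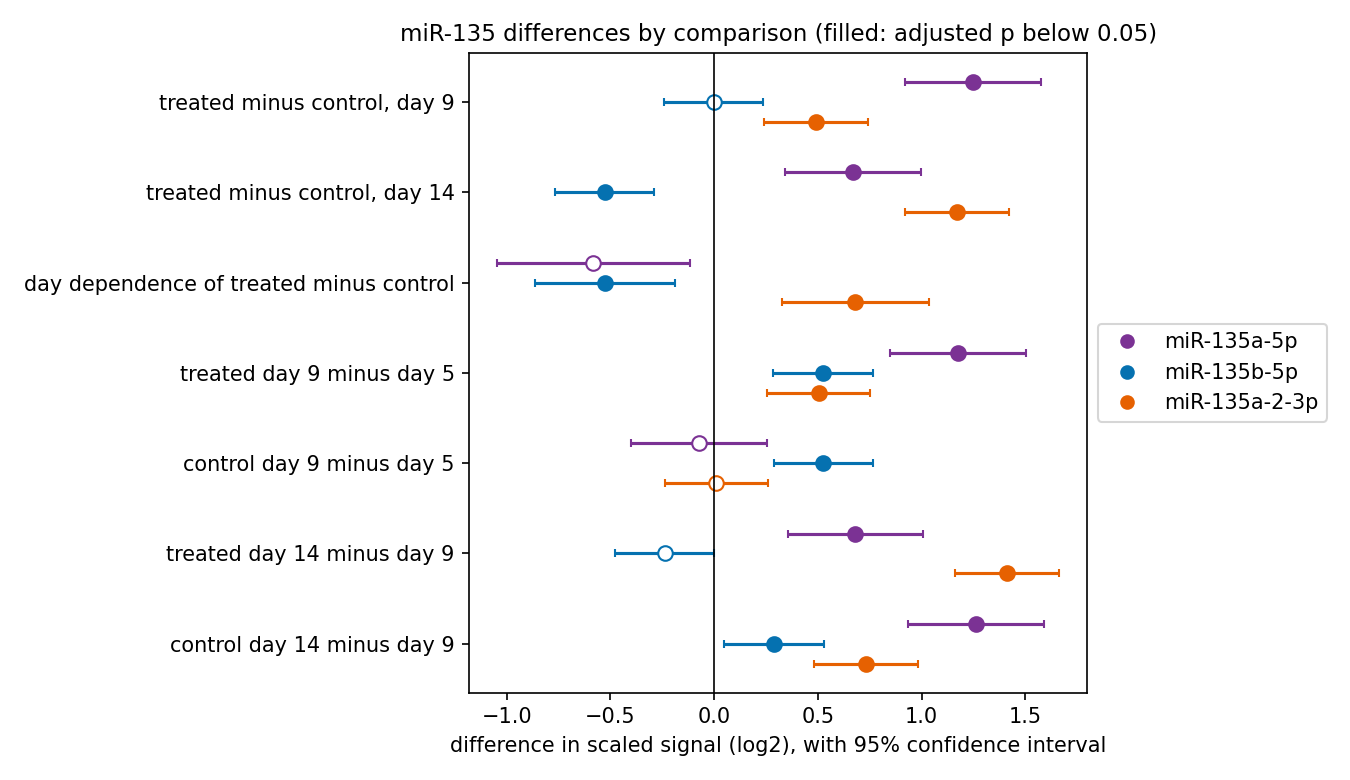
Log2 difference in scaled signal (horizontal axis) with its 95% confidence interval for the 3 members in the 7 comparisons; filled points passed an adjusted p of 0.05 in limma. miR-135a-5p is to the right of 0 in both treated-control comparisons, while miR-135b-5p is at 0 at day 9 and at -0.53 at day 14.

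Markers of other cell types were read beside these differences. The glia list (miR-219-5p and miR-338-3p) summed to 4.73 to 5.02 in treated and 1.76 to 2.12 in control cells at day 9, and to 2.28 to 2.94 and 1.57 to 1.63 at day 14. Both members were higher in treated cells at day 9 (log2 differences 1.33 and 0.62). By day 14 miR-219-5p was higher in treated cells (0.78, adjusted p = 2.98e-05, limma) and miR-338-3p lower (-0.41, adjusted p = 0.00284). Of the endoderm list, 1 of 4 members was above background in treated cells and 0 of 4 in control cells: miR-375-3p was detected, and miR-122-5p, miR-192-5p and miR-194-5p were not detected on any array. Of the 5 mesenchyme miRNAs, miR-143-3p, miR-145-5p and miR-214-3p were below background on each array, and the list summed to 1.51 to 1.70 in treated and 0.69 to 0.76 in control cells at day 9, and to 0.98 to 1.05 and 0.55 to 0.61 at day 14. The blood and endothelium list (0 of 4) and the muscle list (0 of 3) were at background. The part of these lists, and of the neural list, in the miR-135 differences was not tested.

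The courses over days were compared next. With SHH and FGF8, from day 5 to day 9, miR-135a-5p rose 2.26-fold (log2 difference 1.18, SE 0.15, adjusted p = 1.15e-05, limma) and miR-135b-5p 1.44-fold (0.53, SE 0.11, adjusted p = 0.000945). miR-135a-2-3p rose by 0.50 (SE 0.12, adjusted p = 0.00185), with 2 of 3 day 9 and 1 of 3 day 5 arrays above background; this was -0.064 with normexp background correction and did not pass with the percentile of all probes (0.27) or quantile normalization (0.21). miR-135b-5p was at 0.30 (adjusted p = 0.053) with the percentile of all probes. Of all miRNAs 59% were called, 37.8% as higher and 21.2% as lower, and the groups of 61.9% did not overlap. The split was 116 higher and 65 lower, against 77 and 80, 91 and 86, and 95 and 87 with the percentile of all probes, quantile normalization and median scaling. Both groups were on slide 1.

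Without morphogens, over the same days, miR-135b-5p rose 1.44-fold (0.53, SE 0.11, adjusted p = 0.001, limma), while miR-135a-5p did not pass (-0.074, 95% confidence interval -0.40 to 0.25, adjusted p = 0.73) and its groups overlapped. miR-135a-2-3p was above background on 0 of 3 control day 9 and 1 of 3 day 5 arrays and is given no fold (adjusted p = 0.999). Thus 1 of 3 members was called, where 59% of all miRNAs were called (23.8% higher, 35.2% lower) and the groups of 57.7% did not overlap. The arrays of these groups lay on different slides. With the slide as a block miR-135a-5p was at 0.42 (SE 0.23, adjusted p = 0.187) and miR-135b-5p at 0.63 (adjusted p = 0.0319). The value of miR-135a-5p also turned positive with the percentile of all probes (0.28), quantile normalization (0.086) and median scaling (0.093), without a call, and the split of all calls went from 73 higher and 108 lower to 107 and 49, 100 and 74, and 92 and 90, and to 50 and 49 with the slide as a block. These 2 courses share the day 5 arrays, and their difference is the day 9 comparison of treated and control cells.

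From day 9 to day 14 in treated cells, miR-135a-2-3p rose by 1.41 (SE 0.12, adjusted p = 1.47e-07, limma), with 2 of 3 day 9 arrays above background (0.34 with normexp, adjusted p = 0.0256), and miR-135a-5p rose 1.60-fold (0.68, SE 0.15, adjusted p = 0.00122). miR-135b-5p was at -0.24 (95% confidence interval -0.48 to 0.0015, adjusted p = 0.0754) and passed the test with median scaling (-0.45, adjusted p = 0.00805) and without treated day 14 replicate 2 (-0.32, adjusted p = 0.0352). On slide 1 alone, with 2 treated day 14 arrays against 3 of day 9, the differences were 1.41, 0.85 and -0.20 in turn. Of all miRNAs 66.8% were called (35.5% higher, 31.3% lower) and the groups of 75.9% did not overlap; the 109 higher and 96 lower calls became 86 and 121 with median scaling.

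In control cells over the same days, on slide 2 throughout, miR-135a-5p rose 2.40-fold (1.26, SE 0.15, adjusted p = 6.44e-06, limma). miR-135a-2-3p was at least 1.56-fold higher at day 14 (measured difference 0.73, SE 0.12, adjusted p = 8.8e-05), with 3 of 3 arrays above background against 0 of 3. miR-135b-5p rose 1.22-fold (0.29, SE 0.11, adjusted p = 0.0412), its groups overlapped, and the call was lost when any of 4 arrays was left out: control day 9 replicate 1 (adjusted p = 0.111), control day 9 replicate 3 (0.124), control day 14 replicate 2 (0.184) or control day 14 replicate 3 (0.129). It was also lost with normexp background correction (0.23), the percentile of all probes (0.13) and median scaling, where the value was -0.0024. With normexp miR-135a-2-3p was at 0.14 and did not pass. Of all miRNAs 54.7% were called, 31.3% as higher, and the groups of 58.6% did not overlap; the 96 higher and 72 lower calls were 70 and 91 with the percentile of all probes and 67 and 115 with median scaling.

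miR-135a-1-3p took another course. It fell from day 5 to day 9 both with morphogens (by 1.05, SE 0.12, adjusted p = 3.76e-06, limma) and without (by 1.20, SE 0.12, adjusted p = 1.11e-06), then rose by 0.64 in treated cells to day 14 (SE 0.12, adjusted p = 0.000309), a call lost with normexp background correction (0.22, adjusted p = 0.138). In control cells it was at -0.24 over the later days (adjusted p = 0.109, limma). There it was called lower with the percentile of all probes (-0.40, adjusted p = 0.0319), quantile normalization (-0.25, 0.048), median scaling (-0.53, 0.000122) and the compared groups alone (-0.24, 0.0215). From day 5 to day 9 in treated cells it thus fell while miR-135a-5p rose, and from day 9 to day 14 both rose.

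Since an array's scaling cancels in the difference of 2 probes on it, miR-135a-5p was set against miR-135b-5p within each array; this shows unequal change, not which miRNA is more abundant. The log2 difference was -1.05, -0.77 and -1.06 at day 5, and -0.23, -0.28 and -0.42 in treated against -1.53, -1.52 and -1.64 in control cells at day 9. At day 14 it was 0.77, 0.70 and 0.35 in treated and -0.53, -0.61 and -0.63 in control cells. Relative to miR-135b-5p, miR-135a-5p was 2.38-fold higher in treated than in control cells at day 9 (change of 1.25 on the log2 scale) and 2.29-fold at day 14 (1.20). Over days it rose relative to miR-135b-5p by 0.65 from day 5 to treated day 9 and by 0.98 from day 9 to day 14 in control cells. The arrays did not overlap in any of these 4 comparisons. From day 5 to control day 9, which lay on different slides, the group mean of this difference went the other way, from -0.96 to -1.56, also without overlap; this course was not tested. With normexp background correction the 2 changes over days were 0.35 and 0.64. In each, the two-sided exact permutation test gave p = 0.1, the smallest that 3 against 3 arrays allow, and 0.1 after Benjamini-Hochberg adjustment over the 4. At day 9 the slide cannot be told apart from the treatment in this test, while the comparisons over days each lay within a slide. The day 14 comparison mixes slides. There treated replicate 3 alone shared the slide of the controls, and it was at 0.35, against 0.77 and 0.70 for the other treated arrays.

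**Figure D3:**
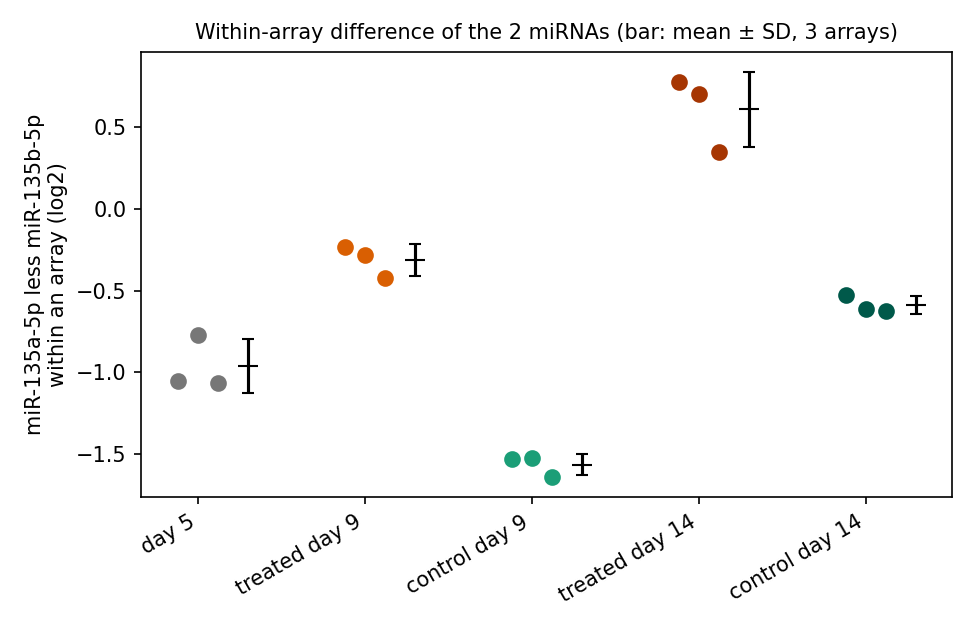
Difference of the log2 signals of miR-135a-5p and miR-135b-5p within each of 15 arrays (vertical axis), by group, with mean ± SD of 3 arrays. The treated arrays lie above the control arrays of the same day, by 1.25 at day 9 and 1.20 at day 14 on average.

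Each member was read by a second probe. The second probe of miR-135a-5p gave treated-control differences of 1.47 at day 9 and 0.76 at day 14, and the second probe of miR-135b-5p gave -0.011 and -0.52, close to the values of the probes used. For miR-135a-2-3p the second probe was above background on 3 of 15 arrays and differed by 0.93 at day 14. It gave 0 for treated minus control at day 9, for treated day 9 minus day 5 and for control day 14 minus day 9. The values of miR-135a-2-3p in those comparisons rest on the probe used. In control cells from day 5 to day 9 the second miR-135a-5p probe gave -0.32, against -0.074 for the probe used. Other probes of miR-135a-1-3p gave -0.47, -0.82 and -1.13 for treated day 9 minus day 5, against -1.05 for the probe used. They gave 1.12, 1.18 and 0.76 for treated day 14 minus day 9, against 0.64. For control day 14 minus day 9 they gave -0.071, 0.073 and -0.14, against -0.24. Probes of near-identical miRNAs can share signal, and the part of such sharing between miR-135a-5p and miR-135b-5p was not tested.

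The plot of other settings sets the treated-control differences side by side. miR-135a-5p was above 0 in each setting drawn and at both days, and miR-135b-5p was below 0 and called at day 14 in each.

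**Figure D4:**
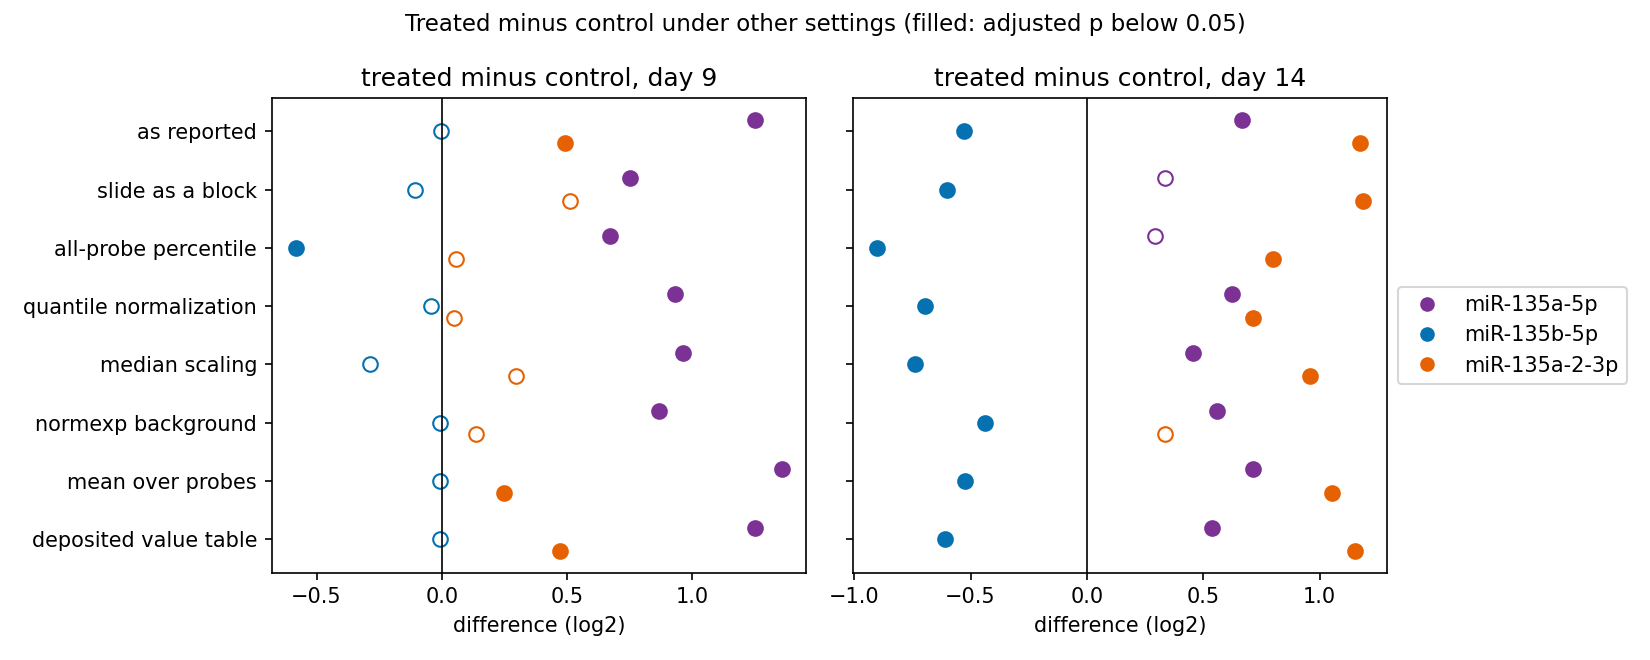
Log2 difference of treated minus control (horizontal axis) for the 3 members at day 9 and day 14, as reported and under 7 other settings; filled points passed an adjusted p of 0.05. At day 9 miR-135a-5p keeps its call in each setting drawn, and at day 14 it loses it with the slide as a block and with the percentile of all probes.

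The miRNAs whose signal over the 15 arrays was most like that of miR-135a-5p were miR-7a-5p (Pearson r = 0.97), miR-22-3p (0.93), miR-30c-5p (0.90), miR-322-5p (0.90) and miR-30b-5p (0.90). These arrays share their scaling and fall into 5 groups, so the values describe the samples and carry no test. miR-7a-5p, a neuronal and neuroendocrine miRNA, had group means of -1.60 at day 5, -0.83 in treated and -1.81 in control cells at day 9, and -0.25 and -0.49 at day 14. The order of its group means was that of miR-135a-5p. Under other settings its r with miR-135a-5p was 0.94 to 0.97, while that of miR-30c-5p was 0.03 to 0.91 and that of miR-322-5p 0.28 to 0.91.

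The miRNAs most like miR-135b-5p were miR-181c-5p (r = 0.83), miR-128-3p (0.83), miR-153-3p (0.82), miR-340-5p (0.79) and miR-181d-5p (0.79), also over 15 arrays. miR-128-3p, enriched in neurons, had group means of -2.91 at day 5, -2.58 in treated and -2.35 in control cells at day 9, and -2.33 and -1.51 at day 14. It was lowest at day 5 and highest at control day 14, as miR-135b-5p was. Between members, r was 0.32 for miR-135a-5p with miR-135b-5p, 0.89 for miR-135a-5p with miR-135a-2-3p and 0.08 for miR-135b-5p with miR-135a-2-3p. miR-135a-2-3p was at the floor on 3 day 5 and 2 control day 9 arrays, so its r values rest partly on tied values. The r between members was not recomputed under other settings.

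**Figure D5:**
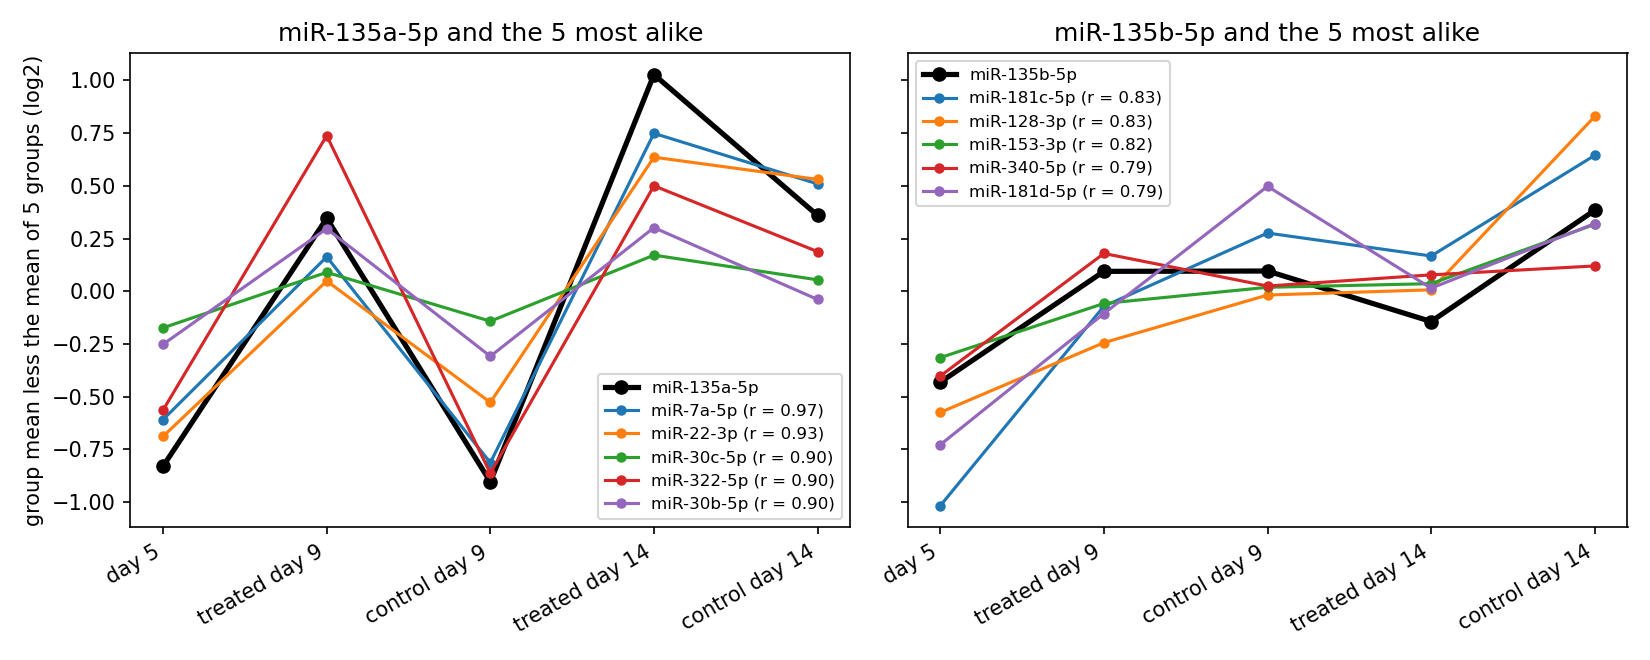
Group means less the mean of the 5 groups (log2, vertical axis) for miR-135a-5p and miR-135b-5p (black) and the 5 miRNAs most like each (colours; r over 15 arrays). The left panel shows peaks at treated day 9 and treated day 14 and lows at day 5 and control day 9; the right panel is lowest at day 5 in each line.

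The family was read beside 16 miRNAs linked to midbrain, dopaminergic neurons or Wnt signalling, of which 14 were tested; miR-133b-3p and miR-34a-5p were above background on 0 of 15 arrays. At day 9, 6 were higher and 6 lower in treated than in control cells and 2 were not called (median 0.14, against 0.25 over all 307). Of all 307, 40.7% were called higher and 15.3% lower. miR-132-3p, an activity-dependent neuronal miRNA, was higher by 2.26 (SE 0.12, adjusted p = 4.51e-09, limma). The p53-responsive miR-34c-5p (1.89) and miR-34b-5p (1.87) and miR-148a-3p (1.40) were also called higher. With normexp background correction these 4 differences were 0.87, 1.08, 1.07 and 0.65 and kept their calls. With the floor raised 4 times miR-132-3p was at 0.64 and miR-148a-3p at 0.69, both called. The list median was -0.27, -0.18 and -0.06 under the percentile of all probes, quantile normalization and median scaling.

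At day 14, 5 of the 14 were higher and 6 lower in treated cells and 3 were not called (median -0.15, against 0.22). miR-34b-5p (1.90), miR-34c-5p (1.89), the motor neuron miRNA miR-218-5p (1.27) and miR-148a-3p (1.103) were the largest of these differences. With normexp miR-34b-5p was at 0.70, miR-34c-5p at 0.69 and miR-148a-3p at 0.36, each still called. With the floor raised 4 times they were at 0.52, 0.47 and 0.17 in turn, also called. Over all miRNAs 39.1% were called higher and 14% lower at day 14. The list median was -0.52, -0.27 and -0.36 under the percentile of all probes, quantile normalization and median scaling. Between the days the treated-control difference was called for 4 of the 14 (median -0.0042, against -0.066 over all), with miR-132-3p (-3.05) and miR-7a-5p (-0.74) lower and miR-92b-3p (1.00) and miR-181b-5p (0.52) higher at day 14. With normexp background correction miR-7a-5p (-0.43), miR-92b-3p (0.26) and miR-181b-5p (0.36) lost their calls, and miR-132-3p was at -1.31. miR-7a-5p also lost its call with quantile normalization (-0.35). With the floor raised 4 times miR-92b-3p was at -0.011 and miR-132-3p at -0.86. Over all miRNAs the change between the days was called higher for 16.9% and lower for 16%. Of the list, 4 were called higher and 3 lower with the percentile of all probes (median 0.20). Quantile normalization gave 5 and 2 (median -0.037).

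The same list was read over days. Of all 307 miRNAs, 37.8% were called higher and 21.2% lower from day 5 to treated day 9, and 23.8% and 35.2% to control day 9. Between day 9 and day 14 these shares were 35.5% and 31.3% in treated and 31.3% and 23.5% in control cells. With the percentile of all probes the list median in these courses was 0.63, 0.55, 0.70 and 0.46 in turn. From day 5 to treated day 9, 12 of 14 rose and 1 fell (median 0.85, against 0.10), led by miR-132-3p (at least 4.81-fold; 3 of 3 arrays above background against 0 of 3), miR-125b-5p (2.46), miR-9-5p (1.54) and miR-9-3p (1.33). With normexp background correction miR-132-3p was at 0.78 on the log2 scale and miR-9-3p at 0.87. With the floor raised 4 times miR-132-3p was at 0.64. Each was still called, but the bound of 4.81-fold belongs to the scaling and floor used here. In control cells over these days 7 rose and 3 fell (median 0.21, against -0.08), with miR-125b-5p at 2.77, miR-9-3p at 2.37, miR-9-5p at 2.31 and miR-181a-5p at 1.80 (1.06 with normexp). From day 9 to day 14, 8 rose and 4 fell in treated cells (median 0.66, against 0.01), among them miR-9-3p (1.29) and miR-125b-5p (1.11), which rose, and miR-132-3p (-1.21) and miR-34c-5p (-1.12), which fell. In this course miR-132-3p was at -0.69 with normexp and at -0.64 with the raised floor, called in both. In control cells 9 rose and 4 fell (median 0.62, against 0.05), among them miR-132-3p (1.83), miR-7a-5p (1.32), miR-9-3p (1.31) and miR-7b-5p (at least 2.30-fold; 3 of 3 arrays above background against 0 of 3). There miR-132-3p was at 0.63 with normexp and at 0.22 with the raised floor, and miR-7a-5p at 0.86 with normexp, each still called. miR-7b-5p passed the filter by its control day 14 arrays, so this rise is partly fixed by the filter. With normexp it was at 0.33 (adjusted p = 0.0469, limma). It had no value with the raised floor, where the arrays compared lay at the floor.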

How the data were processed

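Small RNA was measured on 15 arrays. Per the file headers, the deposited scanner tables hold Cy3 spot intensity from Feature Extraction 11.0.1.1, not normalized between arrays. Other columns hold median, background and background-subtracted intensities. Further columns are 0 or 1 flags for spots above background, saturated (0 spots) or outliers (3.81% to 5.00%). limma 3.20.9 is named in the submitters' processing notes, with no role given.

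Here the processed signal was averaged over a probe's non-outlier spots, scaled by the 75th percentile of each array among 354 probes above background (at least 50% of spots) on 15 arrays, raised to a floor (-4.30, log2) and put on the log2 scale. A miRNA was read by its brightest probe, and was tested if the 3 arrays of some group were above background. limma 3.58.1 (R 4.3.3, with jsonlite 2.0.0 and version 1.17.8 of the data.table package) fitted the 5 groups together (10 residual and 3.10 prior degrees of freedom). Tests were two-sided, adjusted by Benjamini-Hochberg, and called below 0.05. Where no array of a group was above background, "at least" was computed against the lowest detected signal of its arrays. The fit was also run on simulated data with independent noise and no floor, scaling or slide effect, so that run does not test those parts. Python 3.11.15 drew the figures (numpy 2.4.6, pandas 2.3.3, matplotlib 3.10.9). The number of arrays limits the precision.

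The members and the lists were chosen with earlier results of these data known. Named were the members, the other arms, the 5 miRNAs most correlated with each 5p member and up to 4 called list members with the largest change per comparison. Gene neighbours were found from RefSeq gene positions, and the coordinates of those neighbours are not printed.

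Alternatives covered background, scaling, floor, filter, probe choice, slide, replicate number, the samples fitted and each array left out. The scanner tables hold no mean signal column, so normexp (offset 50) took the median signal. A further alternative was the deposited value table, of linear background-subtracted intensity without centring or scaling: in 14 columns 73.4% to 83.7% of probes equal the scanner mean within 0.1%. Column medians of that table, in replicate order, were 0.148, 0.297 and 0.102 for day 5, 0.491, 0.609 and 0.441 for treated day 9, 0.774, 0.774 and 0.313 for treated day 14, 0.032, 0.17 and 0.265 for control day 9, and 0.295, 0.339 and 0.481 for control day 14. Its columns of treated day 14 replicates 1 and 2 agree in 86.0% of probes and were counted as 1 replicate.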

Additional observations from a re-analysis of the deposited data

Results flagged for a closer look

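The treated-control difference changed between day 9 and day 14 for 3 strands of the family, by the interaction test in limma, which called 32.9% of the 307 miRNAs. For miR-135b-5p it went from -0.0015 at day 9 to -0.53 at day 14, a change of -0.53 (SE 0.16, adjusted p = 0.019), and 3 of 3 treated arrays lay below the control arrays at day 14. For miR-135a-2-3p the fitted difference went from 0.49 to 1.17, a change of 0.68 (SE 0.16, adjusted p = 0.00616); 0 of 3 control day 9 arrays were above background, so these values depend on the floor. For miR-135a-1-3p it went from 0.16 to 1.04, a change of 0.88 (SE 0.17, adjusted p = 0.00158). The day 9 value of miR-135a-1-3p was -0.42 (adjusted p = 0.0231) with the percentile of all probes and -0.33 (0.0142) with quantile normalization. With normexp background correction none of these 3 changes passed in limma (adjusted p = 0.0568 for miR-135b-5p, 0.645 for miR-135a-2-3p and 0.263 for miR-135a-1-3p). That of miR-135a-1-3p was also lost with the floor raised 4 times (0.119). The call of miR-135b-5p was also lost with the percentile of all probes (-0.32, adjusted p = 0.202) and median scaling (-0.45, 0.0798). It was lost as well with no filter (adjusted p = 0.108) and when any of 3 arrays was left out. Treated and control day 9 arrays lay on different slides, while at day 14 treated replicate 3 alone shared the slide of the controls. The change between the days therefore mixes slides.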

How the results depend on the processing

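Of 421 recomputed values of the members, 368 kept their direction and their side of the threshold and 53 did not. For the other named miRNAs 704 of 721 kept both. Those counts include the background-subtracted column, which repeats the processed signal. They also include other filters, the replicate block and the compared groups alone, which keep the difference and change only its spread or adjustment. Of 90 recomputed Pearson r, 78 moved by at most 0.1 and 0 changed sign. Keeping outlier spots, the left-out arrays of the within-array test and the alternatives for r were chosen after seeing the data. The dimness of miR-135a-2-3p, above background on 9 of 15 arrays, limits what can be read from it. The causes of the changes below were not tested.

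With normexp background, miR-135a-2-3p was at 0.14 (day 9) and 0.33 (day 14) for treated minus control, 0.20 for the day dependence, -0.064 for treated and -0.20 for control day 9 minus day 5, and 0.14 for control day 14 minus day 9. miR-135b-5p was at -0.43 for the day dependence and 0.23 for control day 14 minus day 9. With the percentile of all probes, miR-135b-5p was at -0.58 (day 9), -0.32 (day dependence), 0.30 (treated day 9 minus day 5) and 0.13 (control day 14 minus day 9). miR-135a-5p was at 0.29 (day 14) and 0.28 (control day 9 minus day 5), miR-135a-2-3p at 0.056 (day 9) and 0.27 (treated day 9 minus day 5) and miR-135a-1-3p at -0.42 (day 9). With quantile normalization, miR-135a-2-3p was at 0.050 (day 9) and 0.21 (treated day 9 minus day 5), miR-135a-5p at 0.086 (control day 9 minus day 5) and miR-135a-1-3p at -0.33 (day 9). With median scaling, miR-135a-2-3p was at 0.30 and miR-135a-1-3p at -0.13 (day 9), miR-135a-5p at 0.093 (control day 9 minus day 5), and miR-135b-5p at -0.45 (day dependence), -0.45 (treated day 14 minus day 9) and -0.0024 (control day 14 minus day 9). With the slide as a block, miR-135a-2-3p was at 0.51 (day 9) and -0.0097 (control day 9 minus day 5), miR-135a-5p at 0.34 (day 14) and 0.42 (control day 9 minus day 5) and miR-135a-1-3p at -0.11 (day 9).

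The day dependence of miR-135a-5p passed with the mean over probes (-0.64), the deposited value table (-0.71) and the compared groups alone (-0.58). miR-135b-5p passed for treated day 14 minus day 9 with that table (-0.31) and the compared groups alone (-0.24). It did not pass for control day 14 minus day 9 with the floor raised 4 times, no filter or the compared groups alone (0.29 each), nor for the day dependence with no filter (-0.53). miR-92b-3p was at -0.011 (day dependence) with the raised floor.

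Counts of called miRNAs, 172, 163, 101, 181, 181, 205 and 168 in the order of the plot of comparisons, were 80, 65, 34, 104, 106, 130 and 97 with normexp. With the raised floor they were 98 (day 9), 93 (day 14), 106 (control day 9 minus day 5), 134 (treated day 14 minus day 9) and 96 (control day 14 minus day 9). Among miRNAs above background on 15 arrays they were 106 (day 9), 59 (day dependence), 119 (treated day 9 minus day 5) and 135 (treated day 14 minus day 9). With the slide as a block they were 75 (day 9) and 99 (control day 9 minus day 5).

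Leaving out each array in turn gave, for miR-135b-5p, -0.048 to 0.044 (day 9), -0.63 to -0.43 (day dependence), -0.32 to -0.20 (treated day 14 minus day 9) and 0.20 to 0.39 (control day 14 minus day 9), and for miR-135a-5p -0.71 to -0.42 (day dependence) and -0.20 to 0.033 (control day 9 minus day 5). Whether the replicate numbers pair the samples could not be settled from so few arrays per group. Same-numbered arrays correlated in their deviations at -0.55 to 0.52, with every pair over 0.1 in 0 comparisons. With a replicate block the day dependence of miR-135a-5p was -0.58 (adjusted p = 0.0155), and the treated-control count was 171 at day 9 and 157 at day 14; no other call of a member changed. miR-135a-2-3p had no value with the raised floor or among miRNAs above background on 15 arrays. The background-subtracted column gave the same values as the processed signal.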
